A study of Mus musculus with 8 samples.

Results

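The genes that code for the machinery of programmed cell death were examined in the spinal cord of mice with experimental autoimmune encephalomyelitis (EAE), a model of multiple sclerosis in which immune cells attack central nervous system myelin. Members were every probe set (a group of short probes for 1 transcript) whose annotation gave a single gene symbol of the caspase, Bcl2, Bnip, Cide, Dff, Aifm, Pdcd, Trp53, Gadd45 or Dapk families, or one of Apaf1, Bad, Bak1, Bax, Bid, Bik, Bok, Mcl1, Mdm2, Cflar, Fadd, Cradd, Diablo and Endog. Casp1 was not among them. The rule used names and no measured value, and it found 72 of 12422 probe sets, for 52 of 8251 genes. No single-symbol probe set was found for Bax or Trp53, which were not analysed here. Another 5 probe sets fitted the name rule but carried several symbols, and no gene is given a value from them.

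RNA from whole spinal cord was hybridized to MG U74Av2 arrays, 1 labelled sample per array, with 5 EAE and 3 control arrays. All mice were SJL/J females of 8 to 12 weeks. EAE followed immunization with PLP peptide, by the study's methods in complete Freund's adjuvant with pertussis toxin, and control mice received vehicle. The EAE mice were taken at an average grade of 2.5, a severe hindlimb weakness, 14, 12 to 14, 17, 14 and 15.5 days into the protocol for EAE 1 to 5. They also received murine serum albumin intravenously 3 hours before death. No such injection is named for the controls, so its effect and that of EAE cannot be told apart. The study's methods name the adjuvant and the toxin for EAE induction only, so the same holds for their effects. Each array held pooled RNA of 2 animals, that is 10 EAE and 6 control mice. The label batch equals the replicate number, and batches 1 to 3 hold an EAE and a control array while batches 4 and 5 hold EAE alone.

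By way of background, apoptosis runs through 2 routes that meet at the caspases, proteases that cut after aspartate. Death receptors such as Fas gather Fadd and caspase-8 at the membrane, and Cflar (c-FLIP) restrains this step. In the mitochondrial route, Bcl2 proteins decide whether the outer membrane is breached. Bcl2, Bcl2l1 (Bcl-xL), Bcl2l2 and Mcl1 guard it, BH3-only proteins such as Bid and Bcl2l11 (Bim) antagonise the guards, and Bax and Bak1 form the pores. Released cytochrome c assembles Apaf1 and caspase-9, which activate the executioner caspases. The transcription factor p53 feeds this system after DNA damage, with Mdm2 as its brake. Inflammatory caspases serve another end: caspase-11, the product of mouse Casp4, senses intracellular lipopolysaccharide and triggers lytic death. In EAE, death of oligodendrocytes and neurons and apoptosis of infiltrating T cells have been described.

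The promoters of the genes with the 4 largest rises are shown first because they changed most, which is how they were picked. Each is the stretch of 250 bases before the annotated start in RefSeq GRCm38.p6, on the plus strand in each case. The windows are chr9:5308599-5308848 for Casp4, chr10:80929841-80930090 for Gadd45b, chr3:95658471-95658720 for Mcl1 and chr9:5345226-5345475 for Casp12. Capitals mark matches on either strand to the NF-kappaB core GGNNTTTCC or to the interferon gamma-activated site TTCNNNGAA.
Casp4: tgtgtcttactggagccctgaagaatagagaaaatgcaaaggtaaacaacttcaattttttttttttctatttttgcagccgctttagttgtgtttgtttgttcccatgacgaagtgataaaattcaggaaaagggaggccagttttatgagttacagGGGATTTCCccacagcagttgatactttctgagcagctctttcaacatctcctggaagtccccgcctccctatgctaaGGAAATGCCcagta
Gadd45b: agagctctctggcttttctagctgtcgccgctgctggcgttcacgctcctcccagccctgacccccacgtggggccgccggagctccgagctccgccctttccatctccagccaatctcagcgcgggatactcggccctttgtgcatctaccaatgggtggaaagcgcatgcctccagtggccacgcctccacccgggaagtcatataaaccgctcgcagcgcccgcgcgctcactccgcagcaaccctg
Mcl1: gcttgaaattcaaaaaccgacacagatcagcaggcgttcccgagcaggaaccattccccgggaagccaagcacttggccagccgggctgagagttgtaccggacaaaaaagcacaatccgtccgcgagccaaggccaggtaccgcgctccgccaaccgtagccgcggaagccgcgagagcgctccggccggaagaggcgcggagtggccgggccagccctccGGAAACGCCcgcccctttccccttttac
Casp12: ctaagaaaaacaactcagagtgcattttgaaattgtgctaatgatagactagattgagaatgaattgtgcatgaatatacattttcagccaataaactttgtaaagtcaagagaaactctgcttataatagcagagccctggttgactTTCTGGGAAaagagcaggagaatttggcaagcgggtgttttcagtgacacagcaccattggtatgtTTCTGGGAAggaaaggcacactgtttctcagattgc
Casp4 held the NF-kappaB core at -92 and -14 from the start, and Mcl1 held it at -28. Casp12 held the interferon gamma-activated site at -102 and -36, and Gadd45b held none of the motifs searched. Promoter windows were found for 47 of the 52 genes, 57 windows in all. Among all 32851 RefSeq windows of this length, 4.93% held the NF-kappaB core and 7.02% the interferon gamma-activated site. The other motifs searched were the interferon-stimulated core GAAANNGAA at 7.13%, the AP-1 site TGANTCA at 6.75% and the p53 half-site at 7.13%. Some of these patterns can overlap one another. Of the 11 genes that rose, with 12 windows, 2 held the NF-kappaB core and 1 the interferon gamma-activated site, and none held the other 3 motifs. Of the 7 windows of genes that fell, 2 held the interferon-stimulated core and 1 held each of the others. The p53 half-site was found in 3 of the 37 windows of genes that were not called, those of Cidec, Gadd45a and Mdm2. These are letter matches only.

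Of the 72 probe sets, 13 rose in EAE (18.1%) and 10 fell (13.9%), while 49 did not pass the test. The background was 8.26% of all probe sets higher and 11.4% lower. The counts by role group below read against the same shares. A call means a Benjamini-Hochberg adjusted p under 0.05 over all 12422 probe sets in a limma model of treatment and batch. Values are log2 signal, and a difference is EAE minus control on that scale as fitted in this model. It can depart from the difference of the group means. The median difference was 0.00 over the members and -0.05 over all probe sets. By gene, 11 of 52 rose, 8 fell, 1 was called in both directions on different probe sets and 32 were not called, against 9.19% of all genes higher and 13.5% lower on their brightest probe set. Every EAE array lay above every control array for 16 of the 72 members, with 10.9% of all probe sets so placed, and below every control for 13 of the 72, with 15.1% so placed. Of the called members, Gadd45g and one Pdcd6ip probe set had groups that overlapped. Only Casp4 and one Gadd45b probe set changed by 2-fold or more, and 15 of the 23 called probe sets reached 1.5-fold.

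**Figure D1:**
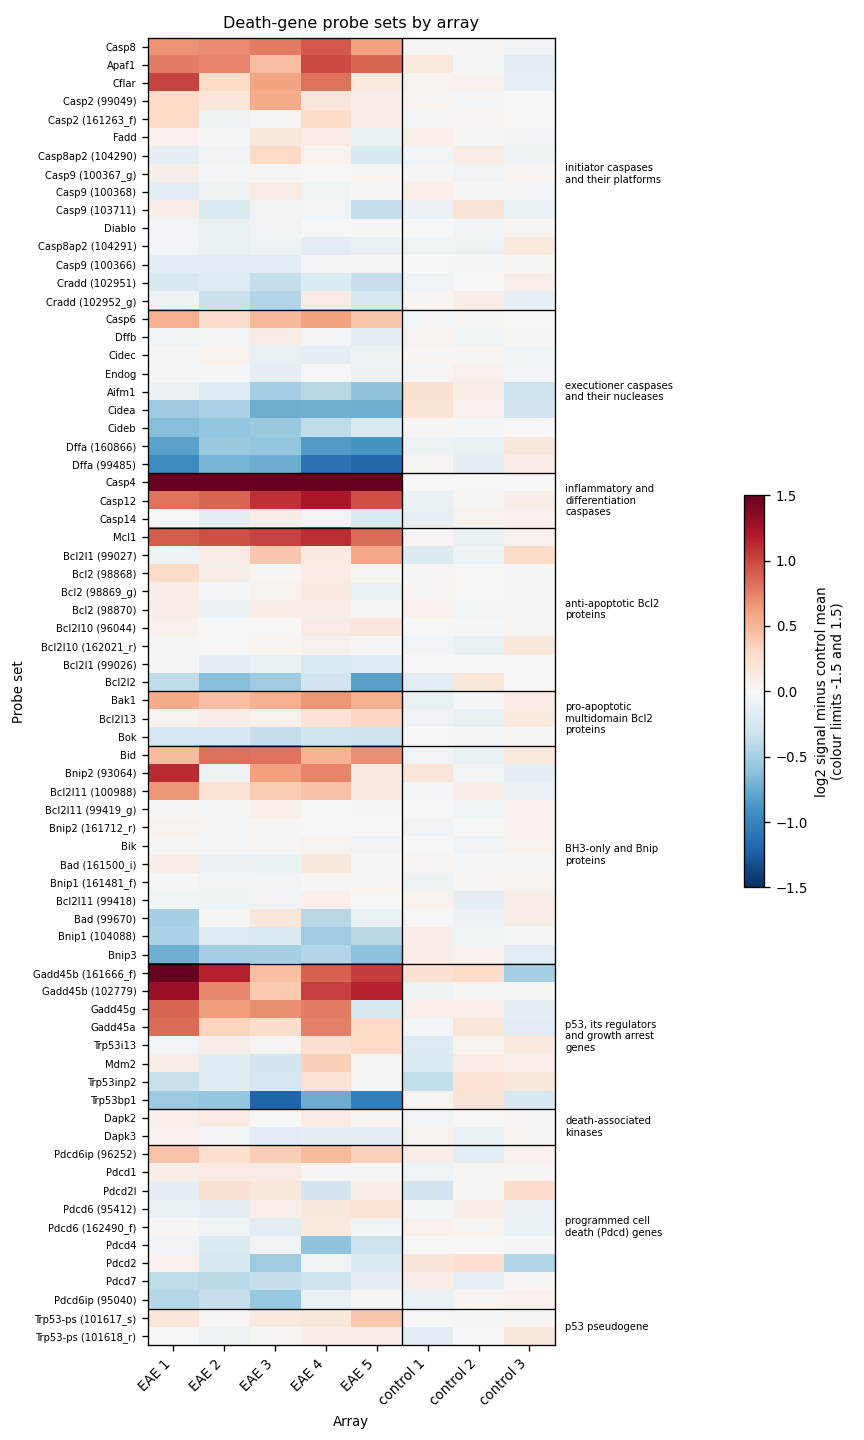
Log2 signal of each of the 72 probe sets (rows, in groups by role) on each of the 8 arrays (columns), minus the mean of the 3 control arrays; red is higher and blue lower, and the colour bar gives the log2 scale. Casp4 is at the red end of the colour scale on all 5 EAE arrays, and most rows of Bcl2, Casp9 and Bcl2l10 are nearly white.

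The estimate rests on the 3 batches that hold both groups, since EAE 4 and EAE 5 have no control in their batch. All 23 called probe sets differed in the same direction within each of these 3 batches. The test weighs these same differences against their spread, so this agreement follows largely from the calls and is no separate support. Leaving out an array of batch 3 leaves 2 pairs, and then 6 of the 23 stayed past the threshold: Casp8, Apaf1, Casp4, Casp12, Mcl1 and Trp53bp1. With an array of batch 2 or batch 1 left out, 14 and 18 did. Without the batch term, 20 of the 23 did. Nothing in the labels says whether the pools came from separate cohorts, so p-values measure only the spread between these arrays. The 8 arrays can be regrouped in 56 ways, so that an exact permutation p for a single probe set cannot go under 0.0179. It was at that value for 18 of the 23 called probe sets. These were picked by their difference on the same arrays, so the count is no separate support. The regroupings also ignored the batches.

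Cell type markers differed between the groups. Macrophage and microglia markers were higher for 14 of 16 genes, and their mean log2 signal was 8.05 to 8.55 on EAE and 6.13 to 6.22 on control arrays. Neutrophil markers were higher for 6 of 11 genes (6.87 to 7.22 against 5.40 to 5.47). T cell markers were higher for 4 of 12 genes and lower for 1 (6.02 to 6.14 against 5.85 to 5.94), and none of 6 B cell markers was called. Endothelial markers were higher for 2 of 7 genes (6.62 to 6.91 against 6.37 to 6.55). Neither of 2 red blood cell markers was called, at 5.50 to 7.12 on EAE and 5.71 to 5.95 on control arrays. Astrocyte markers gave 1 rise and 1 fall among 7 genes (9.76 to 10.09 against 9.90 to 10.06). Neuron markers were lower for 7 of 12 genes (8.99 to 9.38 against 9.82 to 9.88), and myelin and oligodendrocyte markers for 4 of 8 (8.45 to 8.88 against 9.16 to 9.46). The defining markers of the labelled tissue were present, as all 12 neuron markers lay above the median probe set in the controls. In RNA of whole cord, fewer cells of a type and less RNA per cell cannot be told apart, and the part of these markers' cells in the changes below was not tested.

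RNA quality also differed between arrays. The log2 signal of the 3' Gapdh control probe set exceeded the 5' one by 1.46 on EAE 1 and 2.07 on EAE 4, against 0.46 to 0.78 on the other EAE arrays and 0.53 to 0.97 on controls. For beta-actin these differences were 2.35 and 2.79, against 1.11 to 1.83 and 1.62 to 2.29. The part of RNA quality in the changes below was not tested.

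Among the initiator caspases and the platforms that activate them, 3 of 15 probe sets rose and none fell, with a median difference of 0.03. Casp8, the initiator at death receptors (102328_at), read 5.07, 5.11, 5.18, 5.32 and 5.00 on EAE 1 to 5 and 4.41, 4.43 and 4.35 on controls 1 to 3. All EAE values lay above all controls, at 5.14 ± 0.12 (SD, n = 5) against 4.40 ± 0.04 (n = 3). Both groups were dim against the median probe set signal of 6.12. It rose by 0.72 (SE 0.0708, 1.65-fold, adjusted p = 0.0043).

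Apaf1, the scaffold of the apoptosome (103796_at), read 6.81, 6.77, 6.50, 7.02 and 6.90 on EAE and 6.18, 6.02 and 5.90 on control arrays. The groups did not overlap, and batch 3 was lowest in both. The rise was 0.65 (SE 0.0686, 1.57-fold, adjusted p = 0.00506). Cflar, the catalytically inactive relative of caspase-8 that blocks its activation (103217_at), read 6.79, 6.04, 6.36, 6.58 and 5.91 on EAE and 5.82, 5.84 and 5.65 on control arrays. EAE 1 and EAE 4, the arrays with the largest 3' excess, were highest, and EAE 5 was nearly level with the controls. Its rise of 0.63 (SE 0.154, adjusted p = 0.0491) was at the threshold, and without the batch term the adjusted p was 0.074. It did not pass without either array of batch 1 (adjusted p = 0.106) or of batch 3 (0.228). Casp8 and Cflar are neighbours on chromosome 1 in RefSeq, with no protein-coding gene between them.

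The other initiators did not pass. Casp9, the caspase of the apoptosome, was measured by 4 probe sets whose differences ran from -0.16 to 0.03. Their 95% confidence intervals together spanned -0.38 to 0.27. Fadd, the death receptor adaptor, differed by 0.07 (-0.13 to 0.27), and Diablo, the mitochondrial antagonist of caspase inhibitors, by -0.06 (-0.22 to 0.10). Diablo and the Casp9 probe set 100368_at were dim, at EAE means of 4.72 and 4.00, where differences can be understated. For Casp2, an initiator linked to DNA damage, one probe set (99049_at) read 6.96 to 7.42 on EAE and 6.82 to 6.90 on control arrays without overlap, at a difference of 0.35 (adjusted p = 0.0629), while the other differed by 0.08. Both probe sets of Cradd, the adaptor that recruits caspase-2, gave -0.26 and -0.28 (adjusted p = 0.0922 and 0.0828), and the Casp8ap2 probe sets gave 0.04 and -0.07.

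Of the 9 probe sets for executioner caspases and their nucleases, 4 fell (44.4%) and 1 rose (11.1%), with a median of -0.26. The background was 11.4% lower and 8.26% higher. Dffa, the chaperone and inhibitor that holds the apoptotic DNase Dffb inactive, fell on both of its probe sets. On 99485_at it read 7.23, 7.49, 7.45, 7.08 and 7.01 on EAE and 8.22, 8.04 and 8.30 on control arrays. The groups lay well apart, and the fall was by 0.80 (SE 0.103, 1.74-fold lower, adjusted p = 0.00906). On 160866_at the EAE values of 8.10 to 8.43 lay below the controls at 8.89 to 9.15, a fall by 0.65 (adjusted p = 0.0092). Dffb itself differed by 0.00 (-0.19 to 0.19). It was dim, at 4.40 to 4.66 on EAE and 4.48 to 4.60 on control arrays, where differences can be understated.

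Cideb (102329_at) read 5.62, 5.69, 5.71, 5.89 and 6.05 on EAE and 6.28, 6.23 and 6.27 on control arrays. It fell by 0.59 (SE 0.0665, adjusted p = 0.00616) with no overlap, and EAE 5 came nearest to the controls. Cidea (99994_at) fell by 0.59 in the fit as well (adjusted p = 0.0109). Its group means were 5.77 ± 0.25 (n = 3) on control and 5.13 ± 0.12 (n = 5) on EAE arrays. Both were named for a domain shared with Dffa and Dffb and are best known as lipid droplet proteins. Cidec, the third of that family, differed by -0.03, at a dim 4.26 to 4.46 on EAE arrays. The single rise was that of Casp6, an executioner studied in axon degeneration (94458_at), at 5.41 to 5.75 on EAE and 5.11 to 5.19 on control arrays, by 0.43 (1.35-fold, adjusted p = 0.0337). Aifm1, the mitochondrial flavoprotein of caspase-independent death, differed by -0.26 (adjusted p = 0.0542), and Endog, a mitochondrial nuclease, by -0.06. With an array of batch 3 left out, none of these 5 calls passed: the adjusted p was 0.0781 and 0.0728 for Dffa, 0.0525 for Cideb, 0.0539 for Cidea and 0.169 for Casp6. Cidea also missed it without an array of batch 2 (0.0508), and Casp6 without one of batch 1 (0.0906).

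The inflammatory caspases gave the largest change of any member. Casp4 (102905_at) read 6.29, 6.15, 6.50, 6.55 and 6.35 on EAE and 4.55, 4.56 and 4.55 on control arrays. The 3 controls were nearly identical and every EAE array was far above them. These controls lay well below the median probe set signal of 6.12, where RMA pulls values together. Their closeness is therefore no measure of precision. The rise was 1.76 (SE 0.0908, 3.38-fold, adjusted p = 0.000672), and within batches 1 to 3 it was 1.73, 1.59 and 1.95. Casp12, a relative linked to endoplasmic reticulum stress and to damping of inflammation (92488_at), read 6.37, 6.42, 6.64, 6.78 and 6.52 on EAE and 5.44, 5.57 and 5.63 on control arrays. It rose by 0.93 (SE 0.0689, 1.90-fold, adjusted p = 0.00185), again with no overlap. Casp14, a caspase of skin differentiation, differed by -0.02 (-0.24 to 0.20). Casp1, Casp4 and Casp12 lie next to each other on chromosome 9 in RefSeq. Probe sequences were not used here, so cross-hybridization between such relatives was not tested. Macrophage markers, at 8.05 to 8.55 on EAE and 6.13 to 6.22 on control arrays, moved in the same direction as both. So did the marker means of neutrophils (6.87 to 7.22 against 5.40 to 5.47), T cells and endothelium. The source of either rise was not tested.

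**Figure D2:**
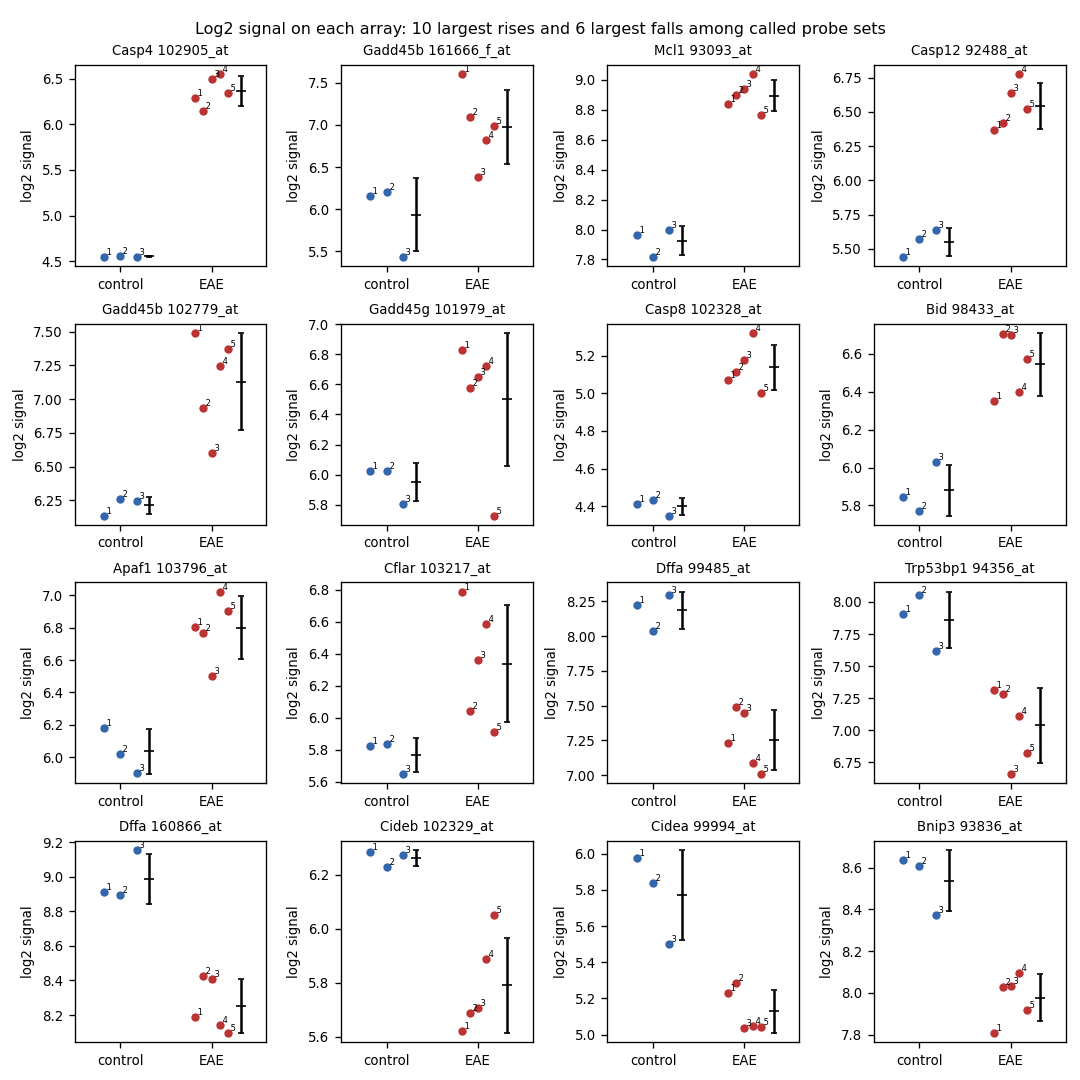
Log2 signal of the 16 called probe sets with the 10 largest rises and 6 largest falls, 1 panel each with its own vertical axis, for control (blue) and EAE (red) arrays numbered by replicate, with mean and SD as black bars. The groups stand apart in each panel but that of Gadd45g, where EAE 5 at 5.73 lies below all controls.

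The anti-apoptotic Bcl2 proteins split by member. Mcl1, a short-lived guard with a role in myeloid and lymphoid survival (93093_at), read 8.84, 8.90, 8.94, 9.04 and 8.77 on EAE and 7.97, 7.82 and 8.00 on control arrays. Its groups did not overlap, and it rose by 0.97 (SE 0.0736, 1.95-fold, adjusted p = 0.002). Bcl2l2 (Bcl-w), which is well expressed in brain and spinal cord (160920_at), read 8.31, 8.05, 8.15, 8.40 and 7.88 on EAE and 8.53, 8.86 and 8.68 on control arrays. Every EAE array was below every control, with EAE 4 and EAE 1 nearest. It fell by 0.52 (SE 0.125, 1.43-fold lower, adjusted p = 0.0466), close to the threshold, and did not pass without an array of batch 2 (adjusted p = 0.138) or batch 3 (0.201).

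Bcl2, the founding guard of the family, did not pass on any of its 3 probe sets, which differed by 0.14, 0.04 and 0.03. Their intervals together spanned -0.15 to 0.33, with one of them reading 3.83 to 4.09 on EAE and 3.78 to 3.83 on control arrays. Bcl2l1 differed by 0.15 (-0.02 to 0.31) on 99027_at and by -0.09 (-0.26 to 0.08) on 99026_at. Bcl2l10 gave 0.02 and 0.01. Over the 9 probe sets, 1 rose, 1 fell and the median was 0.03.

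Among the multidomain pro-apoptotic members, Bak1, which forms pores in the mitochondrial outer membrane (104710_at), read 7.16, 7.06, 7.14, 7.27 and 7.13 on EAE and 6.49, 6.59 and 6.72 on control arrays. It rose without overlap by 0.52 (SE 0.0791, 1.43-fold, adjusted p = 0.0139). Bok, a relative found largely at the endoplasmic reticulum (98031_at), read 6.65, 6.64, 6.54, 6.60 and 6.59 on EAE and 6.89, 6.88 and 6.92 on control arrays. The groups were tight and separate, and the fall was by 0.29 (SE 0.0687, 1.22-fold lower, adjusted p = 0.0453). Bcl2l13 differed by 0.07. Bak1 did not pass without an array of batch 2 (adjusted p = 0.058) or batch 3 (0.0675), and Bok did not without an array of any of the 3 batches (0.0934, 0.13 and 0.194 for batches 1 to 3).

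Of the 12 probe sets for BH3-only and Bnip proteins, 1 rose and 1 fell (8.33% each). The background was 8.26% higher and 11.4% lower. Bid, which carries the death receptor signal to mitochondria once caspase-8 cuts it (98433_at), read 6.35, 6.71, 6.70, 6.40 and 6.57 on EAE and 5.84, 5.77 and 6.03 on control arrays. It rose by 0.71 (SE 0.1, 1.63-fold, adjusted p = 0.0117), and its groups were separate. Bnip3, a mitochondrial protein of hypoxia and mitophagy (93836_at), read 7.81, 8.03, 8.03, 8.10 and 7.92 on EAE and 8.63, 8.61 and 8.37 on control arrays. Every EAE array was below every control, and the fall was by 0.58 (SE 0.109, 1.49-fold lower, adjusted p = 0.0239). Neither call held without an array of batch 3 (adjusted p = 0.0823 for Bid and 0.0556 for Bnip3), nor did that of Bnip3 without one of batch 2 (0.0924).

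Probe sets of single genes in this group gave unlike differences, and some with little difference were dim. Bcl2l11, the BH3-only protein Bim, differed by 0.42 on 100988_at, where EAE read 6.85 to 7.37 and control 6.62 to 6.82 without overlap (adjusted p = 0.0757), but by 0.03 and -0.06 on the other two. Bnip2 differed by 0.55 (adjusted p = 0.124) on 93064_at and by 0.01 on 161712_r_at. On 93064_at, EAE 1 and EAE 4 were highest at 7.04 and 6.66, while EAE 2 at 5.85 lay within the controls at 5.79 to 6.10. Bnip1 differed by -0.29 and -0.04, Bad by -0.10 and -0.03, and Bik by 0.00. The Bcl2l11 probe set at 0.03 (99419_g_at) read 4.09 to 4.18 on EAE arrays. The Bnip1 probe set at -0.04 (161481_f_at) read 3.73 to 3.82. Differences at such levels can be understated. The Bcl2l11 probe set at -0.06 (99418_at) read 6.55 to 6.70.

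**Figure D3:**
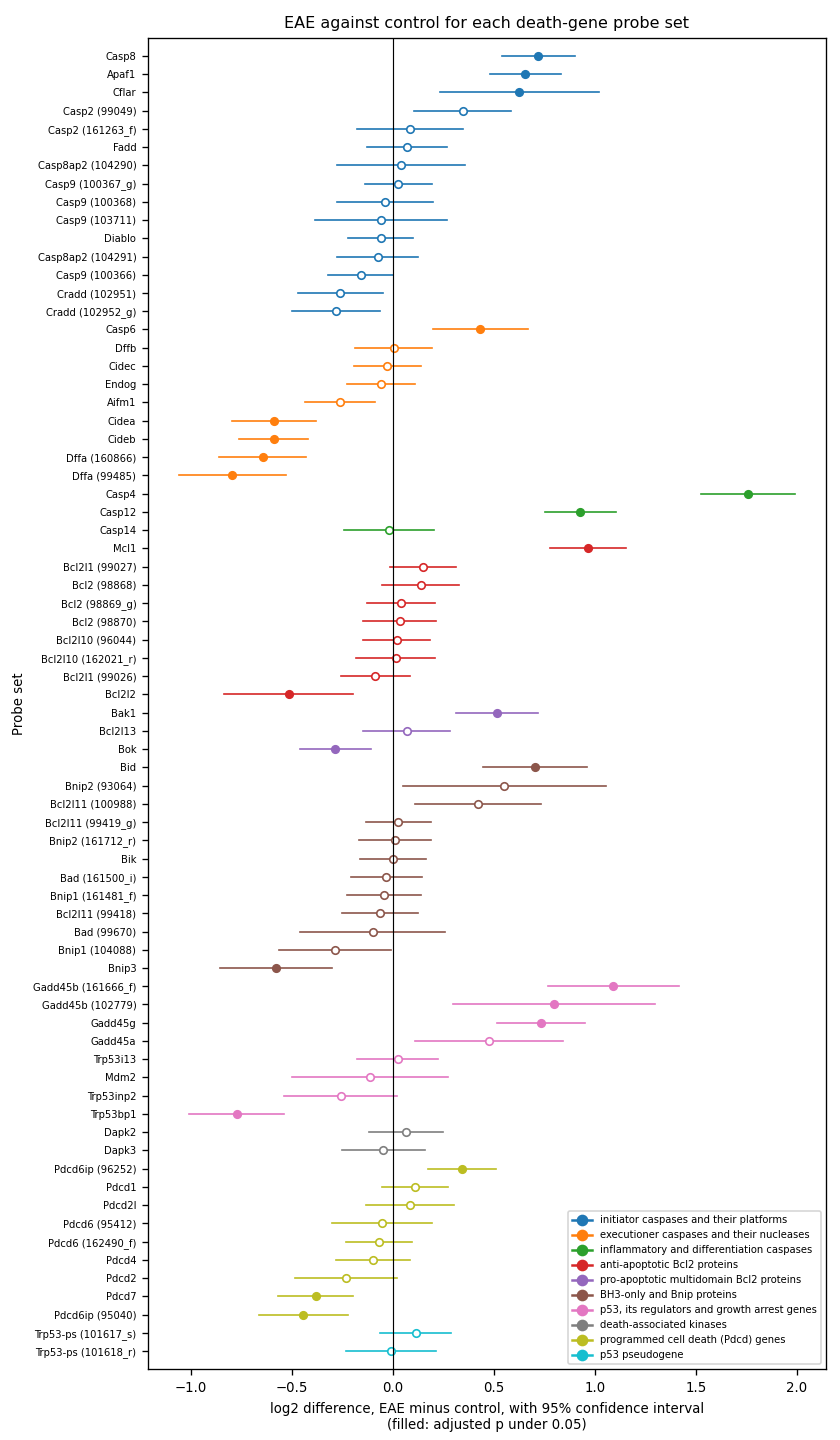
Log2 difference, EAE minus control, with its 95% confidence interval for each of the 72 probe sets, ordered and coloured by role; filled points have an adjusted p under 0.05. Casp4 lies farthest to the right at 1.76, Dffa (99485) farthest to the left at -0.80, and most open points lie within 0.2 of zero.

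Among the p53 regulators and growth arrest genes, p53 itself not being measured, 3 of 8 probe sets rose (37.5%) and 1 fell (12.5%). The background was 8.26% higher and 11.4% lower. Gadd45b, a stress sensor induced by NF-kappaB and TGF-beta signalling, rose on both probe sets. On 161666_f_at it read 7.60, 7.09, 6.38, 6.82 and 6.98 on EAE and 6.16, 6.21 and 5.43 on control arrays, and batch 3 was lowest in both groups. The rise was 1.09 (SE 0.127, 2.13-fold, adjusted p = 0.00677). On 102779_at it read 7.49, 6.93, 6.60, 7.24 and 7.37 on EAE and 6.14, 6.26 and 6.24 on control arrays. Here the rise was 0.80 (SE 0.195, adjusted p = 0.0481), and within batches 1 to 3 it was 1.35, 0.68 and 0.36.

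Gadd45g, its close relative (101979_at), read 6.83, 6.58, 6.65, 6.72 and 5.73 on EAE and 6.03, 6.02 and 5.80 on control arrays. EAE 5 was lower than every control. The fitted rise of 0.73 (SE 0.0849, adjusted p = 0.00669) rests on batches 1 to 3, where EAE 5 has no weight, and without the batch term the adjusted p was 0.138. Gadd45a, the member under direct p53 control, read 7.06 to 7.63 on EAE and 6.63 to 6.98 on control arrays without overlap, at a difference of 0.47 (adjusted p = 0.0834). Trp53bp1, the double-strand break repair factor known as 53BP1 (94356_at), read 7.31, 7.28, 6.66, 7.11 and 6.82 on EAE and 7.91, 8.05 and 7.62 on control arrays. It fell by 0.77 (SE 0.0917, 1.71-fold lower, adjusted p = 0.00707) with no overlap. Without an array of batch 3 none of the 3 Gadd45 calls passed (adjusted p = 0.0525 and 0.0824 for Gadd45b and 0.0587 for Gadd45g), nor did Gadd45b on 102779_at without one of batch 2 (0.125).

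Mdm2, the ubiquitin ligase that p53 itself induces (98110_at), did not pass. It read 8.35, 8.06, 7.96, 8.60 and 8.26 on EAE and 8.03, 8.36 and 8.32 on control arrays, with overlap. Within batches 1 to 3 it differed by 0.32, -0.31 and -0.36, and the fitted difference was -0.11 (-0.50 to 0.27). The 2 probe sets annotated to the p53 pseudogene Trp53-ps, which resembles Trp53 closely enough that its signal is uncertain, differed by 0.11 and -0.01. Trp53inp2 differed by -0.26 (adjusted p = 0.18) and Trp53i13 by 0.02.

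The Pdcd genes share a name rather than a pathway, and 1 of 9 probe sets rose and 2 fell. Pdcd6ip (Alix), an adaptor of membrane budding and repair, was called in both directions. On 96252_at it read 8.85, 8.67, 8.80, 8.90 and 8.77 on EAE and 8.53, 8.26 and 8.50 on control arrays, a rise of 0.34 (adjusted p = 0.0251) with no overlap. On 95040_at it read 7.09, 7.18, 6.95, 7.42 and 7.53 on EAE and 7.41, 7.56 and 7.59 on control arrays, a difference of -0.44 (adjusted p = 0.0261). There EAE 4 and EAE 5 overlapped the controls, and without the batch term the adjusted p was 0.178. No direction is therefore given for this gene.

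Pdcd7 (96802_at), a component of the minor spliceosome, read 6.30, 6.28, 6.33, 6.38 and 6.55 on EAE and 6.78, 6.57 and 6.72 on control arrays. It fell without overlap by 0.38 (SE 0.072, 1.30-fold lower, adjusted p = 0.0243). Pdcd1, the T cell receptor PD-1, differed by 0.11 (-0.05 to 0.27), and Pdcd4, a translation inhibitor, by -0.10. Pdcd2, Pdcd2l and Pdcd6 did not pass either. Without an array of batch 3, none of the 3 Pdcd calls passed (adjusted p = 0.106 and 0.11 for Pdcd6ip and 0.124 for Pdcd7). The same held without one of batch 2 (0.116, 0.085 and 0.0657), and without one of batch 1 for Pdcd6ip on 96252_at (0.0637) and Pdcd7 (0.0732). The death-associated kinases Dapk2 and Dapk3 gave 0.06 and -0.05.

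The 49 probe sets that did not pass ran from -0.29 to 0.55, and 39 of them lay within 0.2 of zero. The 95% confidence interval of a member reached 0.20 to either side at the median, from 0.16 to 0.50. These intervals are not adjusted for the number of tests, and 8 members whose interval left out zero were not called, so larger differences could also be missed with these arrays. Of these 49, 4 had every EAE array above and 4 every EAE array below every control, against 10.9% and 15.1% of all probe sets. Those shares include the called probe sets, so they are no like background for members that were not called.

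Agreement between probe sets of the same gene was mixed. Several probe sets measured 16 of the 52 genes. All probe sets were called for 3 genes, in the same direction for Dffa and Gadd45b and in opposite directions for Pdcd6ip. For the other 13 genes none was called, and no gene had calls on only some of its probe sets.

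**Figure D4:**
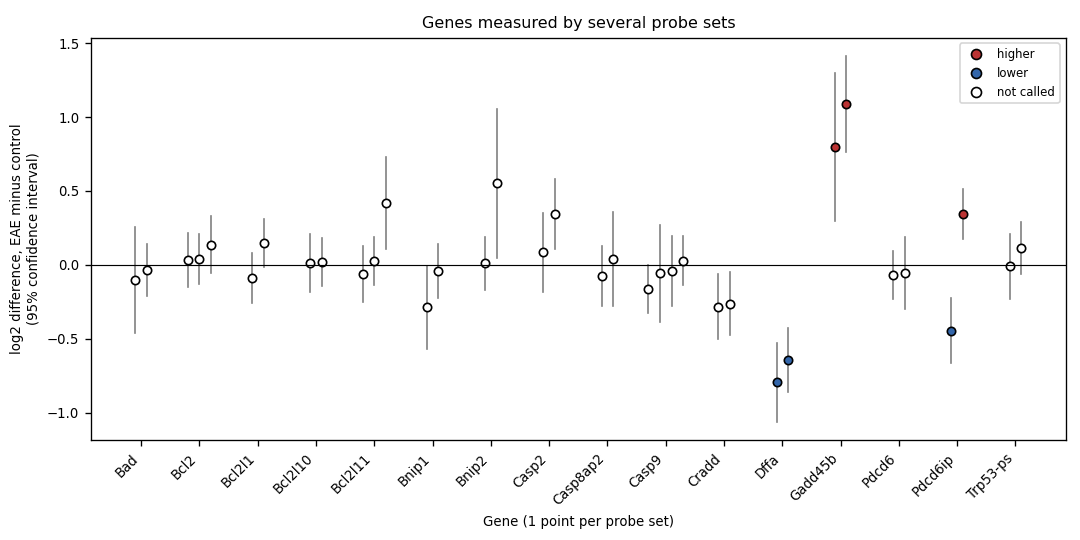
Log2 difference, EAE minus control, with its 95% confidence interval for the 16 genes measured by more than 1 probe set; red is higher, blue lower and white not called. The Dffa pair lies at -0.80 and -0.65, the Gadd45b pair at 0.80 and 1.09, and the Pdcd6ip pair at -0.44 and 0.34.

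Genes that act before, beside or after the members are given from lists, each gene by its brightest probe set. The counts read against the background of 9.19% of genes higher and 13.5% lower. Of 9 death receptor, ligand and adaptor genes, 4 rose and none fell, with a median difference of 0.23. Tnfrsf1b, a TNF receptor of leukocytes, rose by 2.32 (adjusted p = 0.00112), Fas, the receptor upstream of Casp8, by 1.38 (0.00325), Tnfrsf1a, the main TNF receptor, by 1.21 (0.000918) and Tnf by 0.38 (0.019). Fas read 5.57 to 6.45 on EAE and 4.48 to 4.57 on control arrays. Its ligand Fasl differed by 0.23 and was not called, and neither was the adaptor Tradd at 0.04.

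Of 7 inhibitor of apoptosis genes, which include their antagonists, 2 rose and 1 fell. Birc3 (cIAP2), an NF-kappaB target that restrains TNF-induced death, rose by 0.83 (adjusted p = 0.0048), and Birc5 (survivin), a mitotic protein, by 0.53 (0.0252). Septin4, whose short isoform antagonises Xiap and which is well expressed in the nervous system, fell by 1.02 (adjusted p = 0.00426), from 10.18 to 10.28 on control to 8.92 to 9.39 on EAE arrays. Xiap itself differed by 0.00. With an array of any of batches 1 to 3 left out, 1 of the 7 was higher.

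The p53 targets did not move one way. Of 18 measured, 3 rose and 6 fell, with a median of -0.18. Igfbp3, a binder of insulin-like growth factors, rose by 1.24 (adjusted p = 0.0176), Tgm2, a transglutaminase, by 1.00 (0.00139) and Cdkn1a, the cell cycle inhibitor p21, by 0.91 (0.0148). Cdkn1a varied among EAE arrays, at 7.18, 7.88, 7.35, 6.71 and 7.94 against 6.51 to 6.58 on controls. Ephx1, a detoxifying hydrolase, fell by 0.65 (adjusted p = 0.0107). The other 5 that fell were Phlda3, Zmat3, Tsc2, Rrm2b and Foxo3. The targets Sesn1, Perp and Ccng1 were not called. Without an array of batch 3, none of the 6 falls and 2 of the 3 rises passed, and 3 of the 6 falls passed without one of batch 1 or 2. Of 11 kinases and other regulators of p53, none rose and 2 fell, the coactivator Crebbp by 0.57 (adjusted p = 0.00849) and the DNA repair kinase Prkdc by 0.37 (0.0227), and neither passed without an array of batch 3 or without the batch term. Atm, Chek1, Chek2 and Mdm4 were not called.

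Of the 3 inflammasome and pyroptosis genes measured, 2 rose. Il1b, the cytokine that caspase-1 matures, rose by 2.21 (adjusted p = 0.00412) and Casp1 by 1.77 (0.000406), while Il18 differed by -0.04. Casp1 read 6.51 to 7.09 on EAE and 4.86 to 5.06 on control arrays. Of 6 cytotoxic granule genes, 2 rose: Srgn, a granule proteoglycan also made by myeloid cells, by 2.42 (adjusted p = 0.0013) and Gzmb, a protease that cuts Bid and caspases, by 1.15 (0.00108). Prf1, the pore former of these granules, differed by 0.00, and Gzma by 0.11.

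The clearance genes, through which phagocytes recognise and take up dying cells, held the most rises by count and also the most measured genes. Of 22 measured, 14 rose and 1 fell, with a median of 0.95. C1qb, a subunit of the complement component that tags dying cells, rose by 3.56 (adjusted p = 0.000918), Anxa1, released by dying cells and leukocytes, by 3.20 (0.00011), and the other C1q subunits C1qc and C1qa by 2.76 each (0.00205 and 0.000287). C1qa, C1qb and Cd14 also stand in the macrophage marker list, and the rise of Tgm2 is counted here and among the p53 targets. The receptor tyrosine kinases of clearance differed, as Mertk, used by macrophages, rose by 1.01 (adjusted p = 0.00771) and Axl by 0.42 (0.0317), while Tyro3, the form most abundant in neurons, fell by 1.03 (0.00777). Without an array of batch 3, 9 of the clearance genes were higher.

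**Figure D5:**
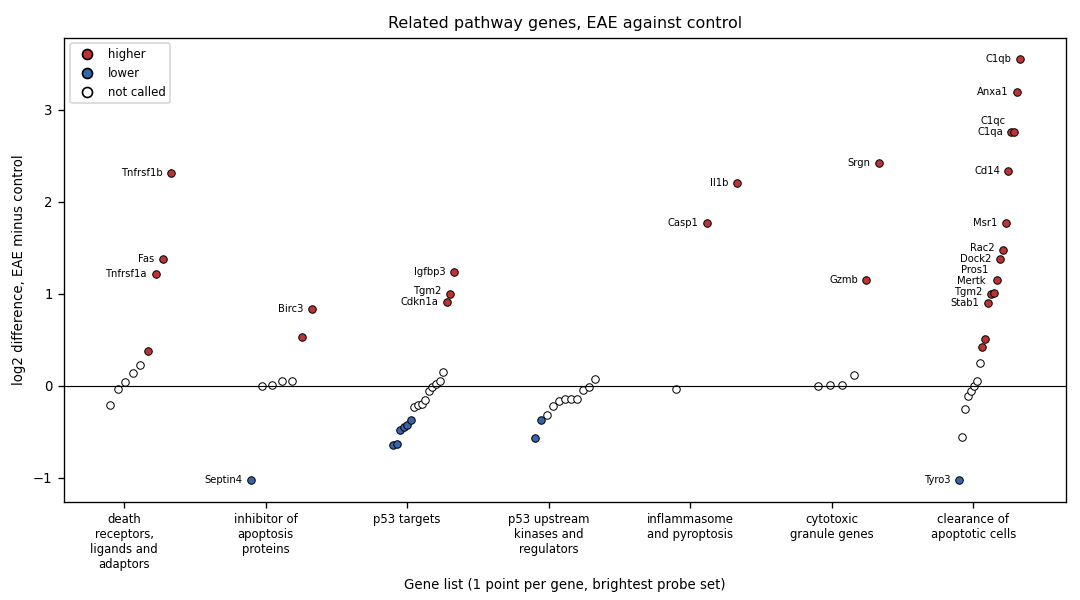
Log2 difference, EAE minus control, for each gene of 7 related lists, 1 point per gene by its brightest probe set; red is higher, blue lower and white not called, and called genes that differ by 0.8 or more are named. The clearance list reaches highest, with C1qb at 3.56, and the p53 target list holds 6 of the falls.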

How the data were processed

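Spinal cord RNA of 5 EAE and 3 control pools was hybridized to Affymetrix MG U74Av2 arrays. The deposited log2 values were made by the authors with RMA, quantile normalization, a GC content adjustment and a log2 transform in the Partek Genomics Suite, and with the MG_U74Av2 na31 annotation library. Versions are not given in the sources used here. RMA pulls low signals together, so differences of dim probe sets can be understated. The values were not normalized again, and array medians lay between 6.08 and 6.13. Depth does not apply to arrays, and the number of arrays limits the precision.

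Control (AFFX) probe sets, 66 in all, were left out. Gene names came from the platform annotation, in which 10833 of the remaining 12422 probe sets had 1 symbol, 396 had several and 1193 had none. All 72 member Entrez identifiers matched RefSeq, with no symbol changed.

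Treatment and batch were fixed terms in limma 3.58.1 under R 4.3.3, after the study's methods, with moderated variances (2 residual and 3.05 prior degrees of freedom), two-sided tests and Benjamini-Hochberg adjustment over 12422 probe sets. The labels give the pairing of EAE and control arrays by batch and same-day killing. Deviations from the group means correlated within batches 1 to 3 at 0.302, -0.231 and 0.412. Two-sided exact permutation tests and figures used Python 3.11.15, scipy 1.17.1 and matplotlib 3.10.9. The model was tested on simulated data. Alternatives were no batch term, a random batch, unmoderated variances, an intensity trend, a robust prior, median centring, repeated quantile normalization, array weights, a floor of 6 on mean log2 signal, stricter thresholds, only plainly named probe sets, 1 value per gene, and leaving out each array.

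Members, lists and promoter motifs were chosen with earlier results of these data known. All called members are named, with values on every array for up to 3 per role group. In a role group without calls, the 2 largest differences are named. Trp53, Mdm2, Casp8, Casp9, Bcl2, Bcl2l1, Bax and Bid are covered whatever their result (an item of this rule is not reported here), as are genes called on only some probe sets and up to 4 called genes of each related list. Genes outside the members stand by their brightest probe set. Others were named after their values were seen.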

Additional observations from a re-analysis of the deposited data

Results flagged for a closer look

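In groups of 4 or more arrays, the highest and lowest value was compared with its neighbour, and a gap of more than 0.71 of the range of 5 arrays drew attention. Chance does so in about 1 in 20 groups, and 3 of the 83 probe sets and marker lists examined were marked. Among the members this was Gadd45g on EAE 5, at 5.73 with the other EAE arrays at 6.58 to 6.83 and the controls at 5.80 to 6.03. The mean of the macrophage and microglia markers was 8.55 on EAE 3, with 8.05 to 8.17 on the other EAE arrays. The mean of the skeletal muscle markers was 4.92 on EAE 1, with 4.59 to 4.68 on the other EAE arrays and 4.63 to 4.67 on controls.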

How the results depend on the processing

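The 13 rises and 10 falls became 7 and 4 at an adjusted p under 0.01, and 5 falls reached 1.5-fold. With no moderation of the variances, which leaves 2 residual degrees of freedom, limma called 0 rises and 0 falls, although 12 rises and 10 falls had a p below 0.05 before adjustment. Leaving out each array in turn gave 5 to 13 rises and 1 to 10 falls, with the lowest counts without EAE 3 or control 3 and 4 falls without EAE 2 or control 2. Over all probe sets, rises went from 1026 to 521 and falls from 1412 to 225 without EAE 3. No replicate block gave 11 rises and 11 falls and a random block 14 and 11. Of the paired calls, Cflar, Gadd45g and Pdcd6ip (95040_at) were lost without the block, the last 2 also with the random block. Cflar was lost with array weights, median centring, repeated quantile normalization and the robust prior, Gadd45b (102779_at) with the last 2 of these, Bcl2l2 with repeated quantile normalization, and Bok and Pdcd6ip (96252_at) with the intensity trend. No called probe set changed direction in any alternative run. Of the always reported genes, the differences that changed sign were not called. Those of Casp9 were 0.03 on 100367_g_at, which became -0.0063 after median centring and -0.0080 after repeated quantile normalization, -0.04 on 100368_at, with -0.13 to 0.055 on leaving out arrays, and -0.06 on 103711_at, with -0.18 to 0.12. That of Bcl2 on 98870_at was 0.03 and became -0.00078 after median centring, with -0.0167 to 0.0737 on leaving out arrays. That of Mdm2 was -0.11 and became 0.0074 with no replicate block, with -0.333 to 0.0075 on leaving out arrays. These alternatives are counted for the 33 called or always reported probe sets, for which 513 other values kept their direction and side of the threshold and 120 kept the direction but fell short of it. Many of these values could not differ. Leaving out EAE 4 or EAE 5 returns the reported fit, and leaving out either array of a pair gives the same fit. Stricter thresholds cannot change a direction. The counts are therefore no measure of robustness. Of the other 39 member probe sets, none called, 17 changed sign in at least 1 alternative, with differences of at most 0.10 to either side of zero in the reported fit. The cause was not tested. Probe sets below the median signal of 6.12 made up 32 of the 72 members, of which 5 were called, against 18 of the 40 above it. Among the 6573 probe sets of the whole array with a mean log2 signal of at least 6, fitted alone, 762 rose and 1277 fell. Over all 12422, 1026 rose and 1412 fell. Calls were thus more frequent among brighter probe sets in general.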
